A study of Oryza sativa and Arabidopsis thaliana with 16 samples.

Results

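The GRXS glutaredoxins of rice (Oryza sativa) were followed in roots and shoots of seedlings after a short supply of nitrogen. The members were GRXS1, GRXS2, GRXS3, GRXS4, GRXS5, GRXS6, GRXS7 and GRXS9, found as the rice genes whose symbol or synonym in a RefSeq gene table is one of these names and which have an array probe set annotated to that gene alone. All 8 members were measured, out of 17905 rice genes with such a probe set. They had 9 probe sets among 57258, and where a gene had more than 1 (GRXS4), the probe set of highest mean was used. The same gene table holds 11 GRXS genes in all, and no member lies next to another in its gene order.

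Wild-type seedlings were grown for 13 days at 27 °C and 180 μE per second and square metre. All groups shared a hydroponic medium whose nitrogen source was ammonium succinate at 0.5 mM, with sucrose at 3 mM. At the start of the light period, nitrogen-treated plants received 20 mM KNO3 and 20 mM NH4NO3 for 2 h, and control plants received 20 mM KCl. Rice made up 4 groups (root control, root nitrogen, shoot control and shoot nitrogen) of 2 arrays each, labelled as biological replicates, and the 8 Arabidopsis arrays of the series were not used here. Only the control salt held chloride, and more salt was added to the treated plants, so a response to nitrogen cannot be told apart from these. The titles and tissue labels name root or shoot, while the protocols speak of whole seedlings, so groups follow the tissue label.

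Glutaredoxins are small proteins of the thioredoxin fold that use glutathione to reduce disulfides or to remove glutathione from other proteins. The S in a GRXS name stands for a serine in place of the second active-site cysteine of GRXC proteins, and such monothiol forms include proteins that carry iron-sulfur clusters. Land plants also have a class with adjacent cysteines (CC-type), which binds TGA-type transcription factors, and in Arabidopsis several CC-type genes with GRXS names respond to nitrate and restrain root growth. Rice GRXS4 is known as a mitochondrial and GRXS7 as a chloroplast protein. The annotation used here gave names without active-site classes, so the other members are described by name alone.

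Values are RMA log2 signal, a scale on which a difference of 1 is a doubling. The 2 arrays of a group correlated at 0.993 to 0.994 across probe sets. The 6 measured shoot markers (photosynthesis genes) averaged 8.57 to 9.51 in root arrays and 11.83 to 11.95 in shoot arrays, and all 6 were lower in roots. The 10 measured root markers averaged 9.35 to 9.78 in root arrays and 5.86 to 6.51 in shoot arrays. Of these, 9 were higher in roots, and SCR1 was lower there (-1.0). NIA1, a nitrate reductase gene used to check the treatment labels, was at 8.62 and 8.41 in root controls and 9.92 and 10.61 in root nitrogen arrays. In shoots it was at 9.98 and 10.47 in controls and 12.35 and 12.24 with nitrogen.

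**Figure D1:**
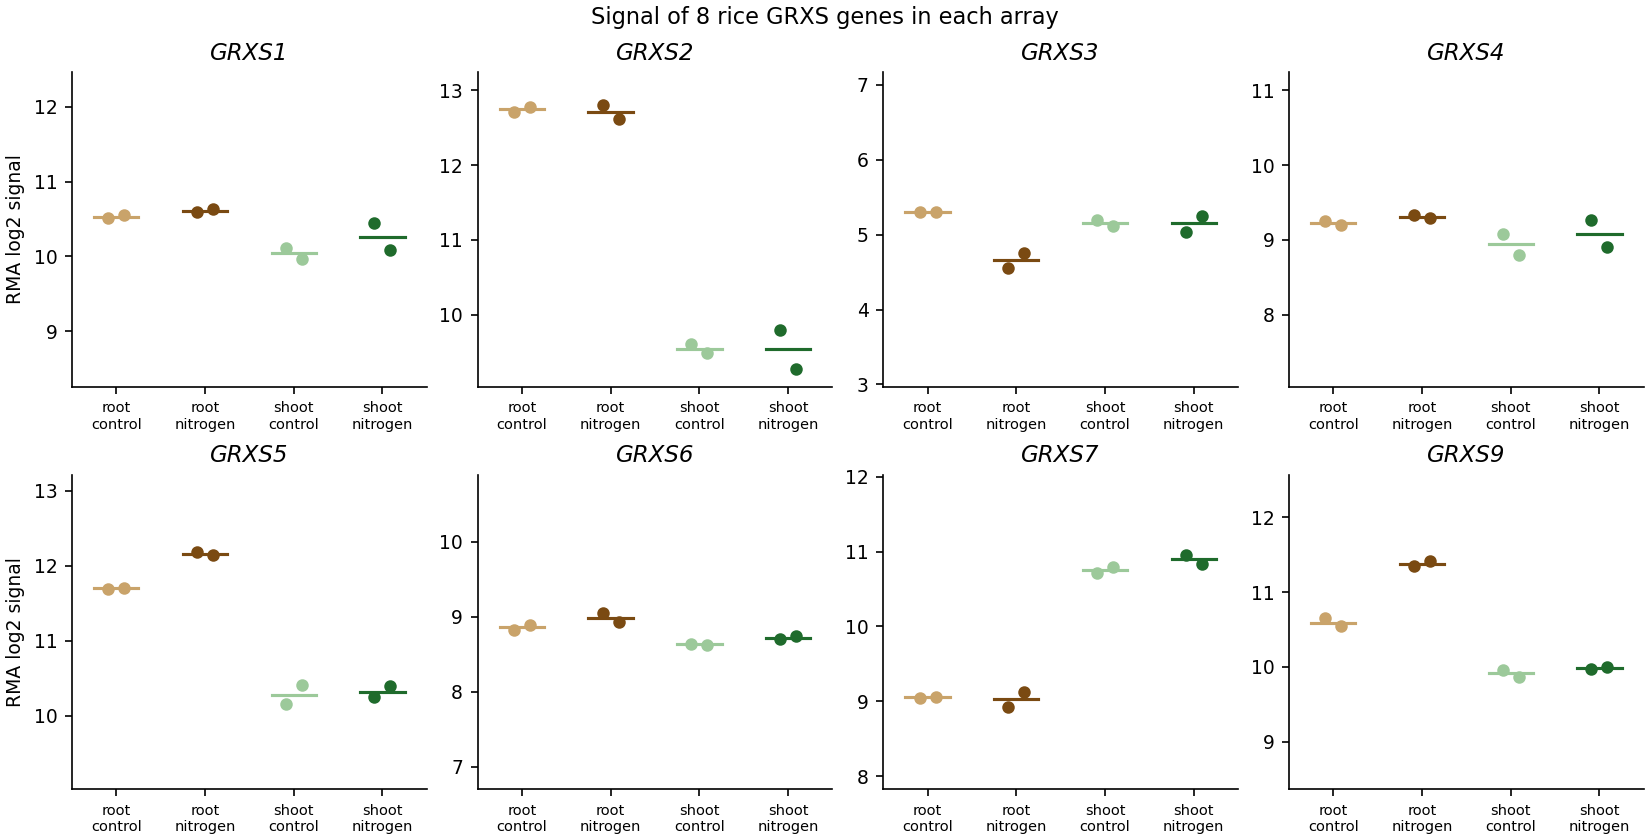
RMA log2 signal (vertical axis) of each GRXS gene in the 4 rice groups (horizontal axis), with 1 point for each of the 2 arrays of a group and a line at their mean. Every panel spans the same log2 range around its own gene's mean. GRXS2 lies between 12.62 and 12.80 in roots and between 9.27 and 9.80 in shoots, GRXS7 is higher in shoots, and GRXS9 is highest in root nitrogen arrays.

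Most GRXS genes had unequal signal in roots and shoots. GRXS2, GRXS5 and GRXS9 were higher in roots by 2.05-fold to 9.10-fold, GRXS7 was 3.44-fold higher in shoots, and GRXS1 and GRXS6 were higher in roots by less than this. GRXS3 and GRXS4 did not pass the test between tissues. The tissues were compared with a linear model over all rice probe sets (limma), in which a probe set was called at a Benjamini-Hochberg adjusted p under 0.05. In all, 6 of 8 members were called, 5 higher and 1 lower in roots. Of all probe sets 40.0% were called, with 24.3% higher and 15.6% lower in roots. The arrays of the tissues did not overlap for the same 6 members, 5 higher and 1 lower in roots, against 23.7% and 15.6% of probe sets. An unadjusted p under 0.05 was reached by 7 members and by 47.1% of probe sets. The median difference of the members, root minus shoot, was 0.34 log2 units, and that of all probe sets was 0.04. Here and below, fewer cells of a type and less RNA per cell cannot be told apart.

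GRXS2 (LOC4327316) had the largest tissue difference of the 8 members. Its signal was 12.71 and 12.78 in root controls and 12.80 and 12.62 in root nitrogen arrays, against 9.61 and 9.49 in shoot controls and 9.80 and 9.27 in shoot nitrogen arrays. All root arrays thus lay above all shoot arrays, while control and nitrogen arrays overlapped within each tissue. The difference was 3.19 ± 0.12 (log2, root minus shoot ± SE, n = 4 arrays per tissue; limma adjusted p = 1.90e-07), or 9.10-fold. It was 3.20 in control and 3.17 in nitrogen-treated plants. The suffix of its probe set marks probes that can match more than 1 transcript, so signal from a related gene may be included.

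GRXS5 (LOC4326324) was at 11.69 and 11.71 in root controls and 12.19 and 12.14 in root nitrogen arrays. In shoots it was at 10.15 and 10.41 in controls and 10.25 and 10.39 with nitrogen. Root arrays lay above shoot arrays without overlap, and the tissue difference was 1.63 ± 0.08 (adjusted p = 9.74e-07), or 3.09-fold.

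GRXS9 (LOC9269297) was at 10.65 and 10.54 in root controls and 11.35 and 11.41 in root nitrogen arrays. In shoots it was at 9.96 and 9.87 in controls and 9.97 and 10.00 with nitrogen. Its 4 groups did not overlap at any step from root nitrogen through root control and shoot nitrogen to shoot control. The shoot groups stood only 0.07 apart, and their nearest arrays read 9.97 and 9.96. GRXS6 had the same order of groups, also without overlap. How many of all probe sets share this order was not counted. Averaged over treatments, GRXS9 was 1.04 ± 0.07 higher in roots (adjusted p = 5.20e-06), or 2.05-fold. The difference was 0.68 in controls and 1.39 with nitrogen.

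GRXS7 (LOC4334801), the gene of a chloroplast glutaredoxin, was the member called higher in shoots. It was at 9.05 and 9.06 in root controls, 8.93 and 9.13 in root nitrogen arrays, 10.71 and 10.80 in shoot controls, and 10.96 and 10.83 in shoot nitrogen arrays. All 4 shoot arrays lay above all 4 root arrays, and the root groups overlapped with each other. Root minus shoot was -1.78 ± 0.08 (adjusted p = 4.26e-07).

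GRXS1 and GRXS6 had small tissue differences. GRXS1 (LOC4327130) was at 10.51 and 10.55 in root controls, 10.60 and 10.63 in root nitrogen arrays, 10.11 and 9.97 in shoot controls, and 10.44 and 10.08 in shoot nitrogen arrays. Its root arrays all exceeded its shoot arrays, by 0.42 ± 0.09 on average (adjusted p = 0.00643). GRXS6 (LOC4330145) was at 8.82 and 8.89 in root controls, 9.05 and 8.93 in root nitrogen arrays, 8.63 and 8.62 in shoot controls, and 8.70 and 8.74 in shoot nitrogen arrays. Its difference was 0.25 ± 0.07 (adjusted p = 0.0169). The GRXS6 call was lost without root control replicate 2 (adjusted p = 0.0578), without root nitrogen replicate 1 (0.0537) and without shoot nitrogen replicate 1 (0.0527).

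GRXS4 (LOC4327794), the gene of a mitochondrial glutaredoxin, gave a different call by each of its probe sets. By the probe set of highest mean it was at 9.25 and 9.20 in root controls, 9.33 and 9.29 in root nitrogen arrays, 9.08 and 8.80 in shoot controls, and 9.26 and 8.90 in shoot nitrogen arrays. Root controls overlapped with shoot nitrogen arrays, and the shoot groups with each other. The difference was 0.26 ± 0.10 (95% interval 0.03 to 0.49, adjusted p = 0.0750). By the other probe set the arrays read 9.04, 8.88, 9.02 and 9.0 in roots and 8.44, 8.29, 8.62 and 8.40 in shoots, with no overlap. That difference was 0.54 ± 0.08 (adjusted p = 0.000895), and the mean of the probe sets gave 0.40 (adjusted p = 0.00737). With the probe set of highest mean the call was gained without shoot control replicate 1 (0.33, adjusted p = 0.0464) and without shoot nitrogen replicate 1 (0.35, adjusted p = 0.0246).

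GRXS3 (LOC4327691) had a signal below 6.18, the median of all probe sets' means, on every array, and RMA values carry no detection call. It was at 5.30 in each root control array, at 4.56 and 4.76 in root nitrogen arrays, at 5.20 and 5.11 in shoot controls, and at 5.04 and 5.25 in shoot nitrogen arrays. Root nitrogen arrays were the lowest, and the shoot groups overlapped. Averaged over treatments, root minus shoot was -0.17 ± 0.08 (95% interval -0.36 to 0.02, adjusted p = 0.134). It was 0.14 in controls and -0.49 with nitrogen.

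**Figure D2:**
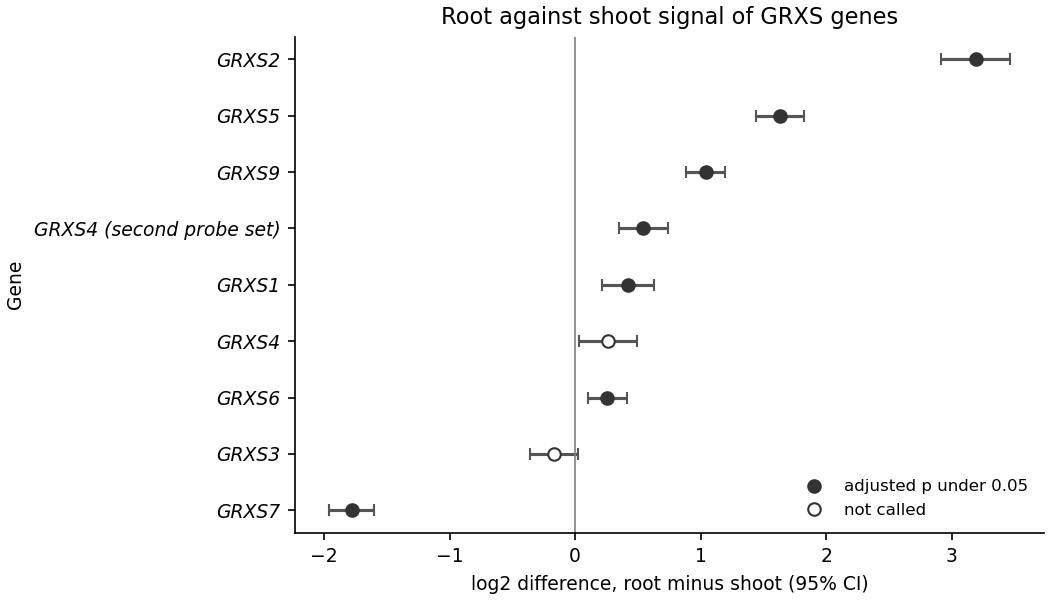
Log2 difference in signal between root and shoot (horizontal axis, root minus shoot, mean of both treatments) of each GRXS gene, with both probe sets of GRXS4. Points are limma estimates over 8 arrays, bars are 95% intervals, and filled points have an adjusted p under 0.05. GRXS2 (3.19), GRXS5 (1.63) and GRXS9 (1.04) lie on the root side and GRXS7 (-1.78) on the shoot side.

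In roots, nitrogen changed 1 of the 8 GRXS genes by the test over all probe sets. GRXS9 rose 1.72-fold, a log2 change of 0.78 ± 0.10 (SE, 2 arrays in each group; limma adjusted p = 0.0270), a call that was lost in each fit with fewer arrays. GRXS5 stood at 0.47 ± 0.12 and GRXS3 at -0.64 ± 0.12, and neither passed. Limma called 0.245% of all probe sets in this comparison, 0.182% as higher and 0.0629% as lower. An unadjusted p under 0.05 was reached by 3 members and by 10.5% of probe sets. The members' median change was 0.09, and that of all probe sets -0.02.

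Both root nitrogen arrays lay above both root control arrays for 5 members (GRXS1, GRXS4, GRXS5, GRXS6 and GRXS9) and below them for 1 (GRXS3). Among all probe sets, 18.2% were separated in the upward and 23.1% in the downward direction. The separation was narrow for GRXS1 (nearest arrays 10.60 and 10.55), GRXS4 (9.29 and 9.25) and GRXS6 (8.93 and 8.89). With quantile normalization the root changes of these genes were 0.05, 0.04 and 0.10, against 0.09, 0.09 and 0.14 without it. The GRXS9 change exceeded that of 99.3% of probe sets and ranked 98 among the 104 probe sets called higher. The change of GRXS5 (95% interval 0.20 to 0.73, adjusted p = 0.191) exceeded that of 97.5% of probe sets. The change of GRXS3 (95% interval -0.91 to -0.37, adjusted p = 0.0881) exceeded that of 0.908%, which places it near the lower end of all changes.

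The remaining 5 members showed little change in roots. GRXS1 was at 0.09 ± 0.13, GRXS4 at 0.09 ± 0.14 and GRXS6 at 0.14 ± 0.10. GRXS2 (-0.03 ± 0.17) and GRXS7 (-0.03 ± 0.11) were near 0, and with each array centred on its median their sign turned (0.00475 and 0.01). The 95% intervals of these 5 lay within -0.42 to 0.42. In this comparison the called probe sets had changes of at least 6.79 times their SE, which for the members amounts to changes of 0.65 to 1.15. A smaller response could therefore not be called with 2 arrays per group.

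**Figure D3:**
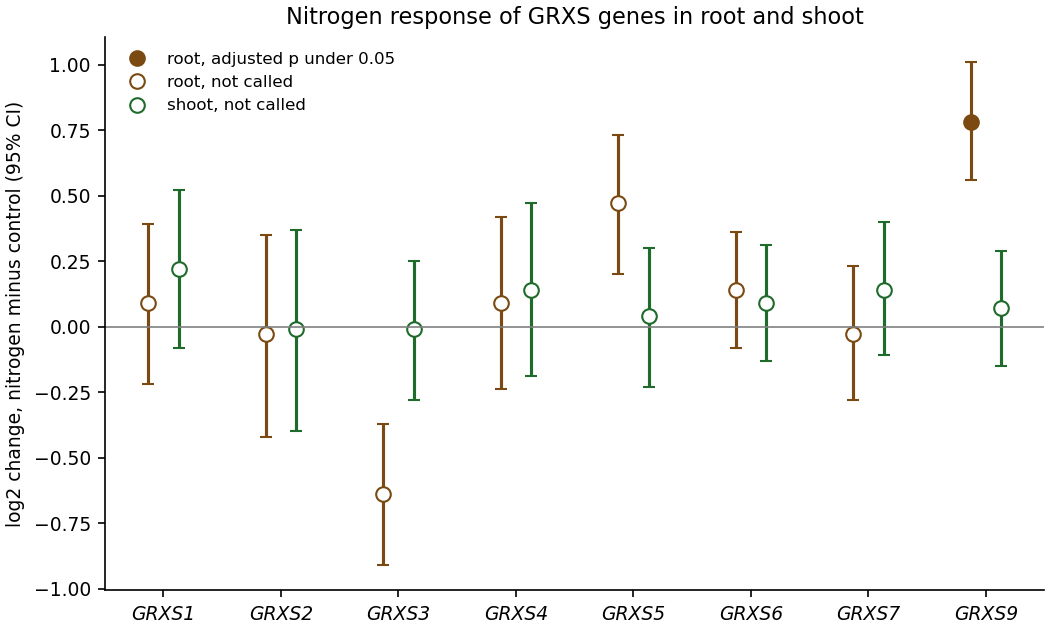
Log2 change with nitrogen (vertical axis, nitrogen minus control) of each GRXS gene in root and shoot. Points are limma estimates from 2 arrays per group, bars are 95% intervals, and the filled point has an adjusted p under 0.05. GRXS9 in roots (0.78) is the called value, and GRXS3 (-0.64) and GRXS5 (0.47) in roots are the others whose interval leaves out 0.

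With each of the 8 arrays left out in turn, the GRXS9 change in roots ran from 0.73 to 0.84 and the adjusted p from 0.0516 to 0.126, above the threshold in each fit. Such a fit leaves 1 group with a single array, which adds no spread of its own and is assumed to vary like the other groups. It also has fewer arrays, so a lost call there is no measure of how stable the change is. The adjusted p was 0.101 and 0.126 without root control replicates 1 and 2, and 0.114 and 0.0763 without root nitrogen replicates 1 and 2. Leaving out a shoot array gave 0.0516 (each control) or 0.0656 (each nitrogen array). A fit of the 4 root arrays by themselves gave 0.118, and unmoderated variances gave 0.295. Over the same 8 fits GRXS5 ran from 0.44 to 0.49 (adjusted p from 0.173 to 0.518) and GRXS3 from -0.74 to -0.54 (adjusted p from 0.104 to 0.351).

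**Figure D4:**
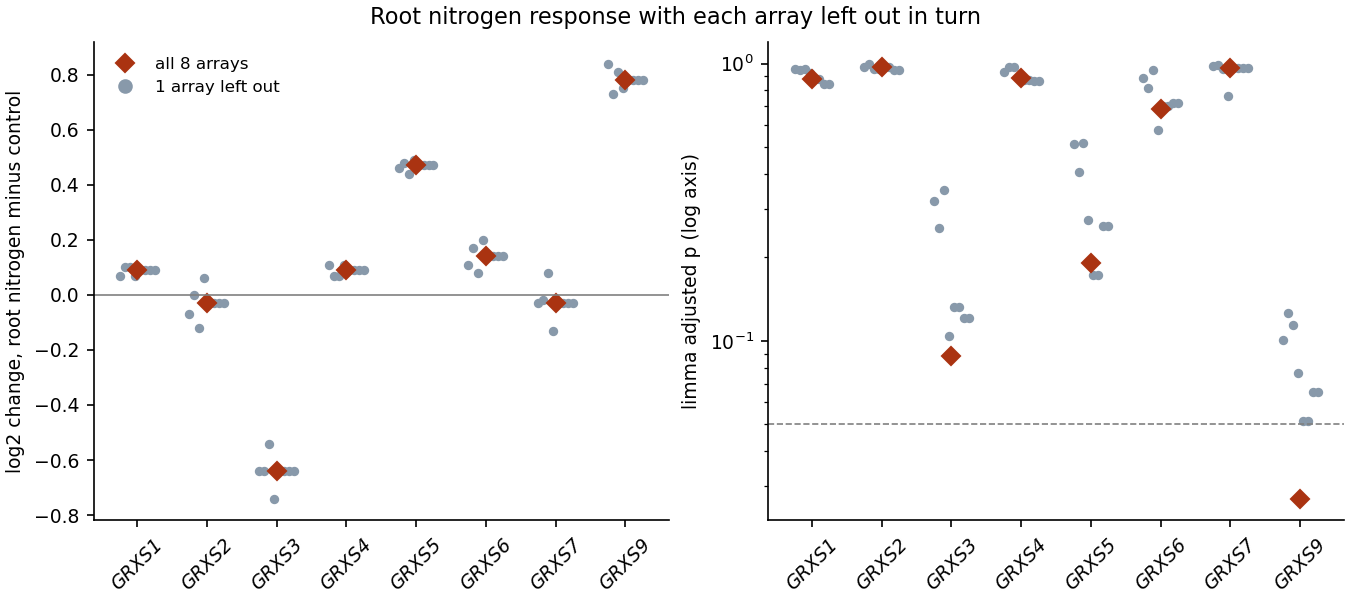
Root nitrogen response of each GRXS gene with all 8 arrays (diamonds) and with each array left out in turn (dots). The left panel gives the log2 change and the right panel the limma adjusted p on a log axis, with a dashed line at 0.05. GRXS9 stays between 0.73 and 0.84 on the left and lies above the line in all 8 fits on the right.

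In shoots no GRXS gene was called with nitrogen. The count was 0 of 8 with limma, against 0.0437% of all probe sets. None of the 8 had an unadjusted p under 0.05, which 6.21% of probe sets had, and none was called without moderated variances. The changes ran from -0.01 (GRXS2 and GRXS3) to 0.22 ± 0.13 (GRXS1), with a median of 0.08 against 0.01 for all probe sets. GRXS9, called in roots, was at 0.07 ± 0.10 (95% interval -0.15 to 0.29), and GRXS5 was at 0.04 ± 0.12.

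Nitrogen and control arrays of shoots did not overlap for 3 members, all higher with nitrogen (GRXS6, GRXS7 and GRXS9), where 18.7% of all probe sets were so separated. No member was separated downward, against 15.7% of probe sets. The 95% intervals of the 8 members lay within -0.40 to 0.52. Called probe sets in shoots had changes of at least 8.65 times their SE, which for the members amounts to 0.83 to 1.46. The shoot nitrogen arrays disagreed for GRXS2 (9.80 and 9.27), a gap larger than that of 97.0% of probe sets in this group. GRXS1 (10.44 and 10.08) and GRXS4 (9.26 and 8.90) had gaps of 0.36, larger than those of 90.7% and 90.5% of probe sets. In all of these, replicate 1 was the higher array.

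The root and shoot responses were then compared directly. None of the 8 members passed this test (limma, root response minus shoot response), where 0.0% of all probe sets were called, and none passed it without moderated variances. Of the members 3 had an unadjusted p under 0.05, as did 6.03% of probe sets. GRXS9 had a difference of 0.71 ± 0.14 (adjusted p = 0.397), GRXS5 of 0.43 ± 0.16 (adjusted p = 0.778) and GRXS3 of -0.63 ± 0.16 (adjusted p = 0.600). The GRXS9 rise was thus not shown to differ between the tissues. Averaged over the tissues, 0 of 8 members were called, against 0.133% of all probe sets (0.115% higher and 0.0175% lower), and 3 had an unadjusted p under 0.05, against 10.7% of probe sets. GRXS9 was at 0.43 ± 0.07 (adjusted p = 0.0756), GRXS5 at 0.25 ± 0.08 (adjusted p = 0.305) and GRXS3 at -0.33 ± 0.08 (adjusted p = 0.191).

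The genes with GRXC names were set beside the GRXS genes, by name alone, since the annotation gave no active-site classes. None of the 7 measured GRXC genes was called with nitrogen in either tissue, against 0.245% of all probe sets in roots and 0.0437% in shoots. In roots the largest GRXC changes were 0.44 ± 0.13 (GRXC3) and -0.31 ± 0.18 (GRXC1), against 0.78 for GRXS9. In shoots GRXC10 was at 1.62 ± 0.23 (adjusted p = 0.137), GRXC1 at 1.02 ± 0.18 (adjusted p = 0.236) and GRXC15 at 0.97 ± 0.23 (adjusted p = 0.417). The other GRXC genes were at 0.11 (GRXC6), 0.04 (GRXC8), -0.15 (GRXC3) and -0.47 (GRXC7), and the list's median was 0.11 in shoots and 0.04 in roots. The GRXS medians were 0.08 and 0.09. Whether the GRXS and GRXC groups differ was not tested. Between tissues 3 GRXC genes were called higher and 3 lower in roots, with GRXC7 (3.08), GRXC8 (0.58) and GRXC6 (0.48) on the root side and GRXC1 (-5.33), GRXC15 (-4.55) and GRXC10 (-3.21) on the shoot side. Of all probe sets, 24.3% were called higher and 15.6% lower. In roots the signals of GRXC15 (4.68 to 5.34) and GRXC10 (5.70 to 6.10) lay below the 6.18 given for GRXS3, and those of GRXC1 (5.71 to 6.37) lay around it. Those root signals were not shown to be above background, so the sizes of these differences are uncertain.

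**Figure D5:**
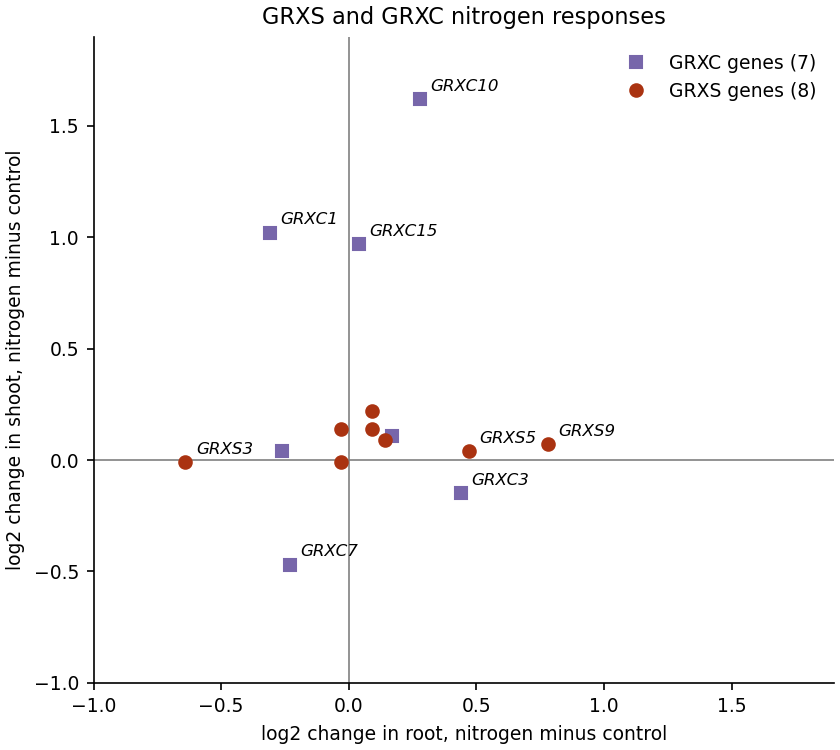
Log2 change with nitrogen in root (horizontal axis) and in shoot (vertical axis) for 8 GRXS genes (circles) and 7 GRXC genes (squares), each point a limma estimate. Genes past 0.4 in either tissue are named. GRXS9, GRXS5 and GRXS3 spread along the root axis, and GRXC10, GRXC1 and GRXC15 lie between 0.97 and 1.62 on the shoot axis.

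TGA-type transcription factors, the partners of CC-type glutaredoxins, numbered 10. None was called with nitrogen in roots or shoots, against 0.245% and 0.0437% of all probe sets. Their median change was 0.26 in roots and 0.09 in shoots. The largest in roots were TGAL5 at 1.51 ± 0.25 (adjusted p = 0.0680) and TGAL8 at 1.02 ± 0.15 (adjusted p = 0.0525), and in shoots TGAL6 at -0.35 ± 0.17 and TGAL5 at 0.33 ± 0.25. Of the 10, 9 were called higher in roots than in shoots, against 24.3% of all probe sets, with a median difference of 2.04 over the list. These were TGAL4 (4.53), TGAL5 (3.63), TGAL7 (3.60), TGAL6 (2.86), TGAL11 (2.57), TGAL8 (1.51), TGAL1 (1.48), TGA2.2 (0.92) and TGA2.1 (0.38).

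Thioredoxin and glutathione genes stayed uncalled with nitrogen, as did all but 0.245% of probe sets in roots and 0.0437% in shoots. None of the 4 genes named as thioredoxins or their reductase changed by more than 0.19 in roots or 0.07 in shoots. The one at 0.19 (TRX1) also carries names of a SET-domain gene. Between tissues NTRB (0.72) and TRX1 (0.41) were called higher in roots and TRXM (-2.92) lower, against 24.3% and 15.6% of all probe sets. The 8 genes of glutathione synthesis, reduction and use ran from -0.33 (GSTF1) to 0.29 (GSTZ3) in roots and from -0.09 (GSTF1) to 0.21 (GSTU6) in shoots. Between tissues 5 of these were called higher in roots and 1 lower, where 24.3% and 15.6% of all probe sets were. The glutathione transferase genes GSTU1 (4.07), GSTU6 (2.60), GSTF2 (0.85) and GSTZ5 (0.54) and the glutathione reductase gene GRC2 (0.59) were higher, and GSTF1 (-3.35) was lower. No gene of the iron-sulfur cluster assembly list was named by the annotation used here.

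For each of the 6 members called in any comparison, the 3 named genes with the most similar profile were found by Pearson correlation over the 8 rice arrays, among 2451 named genes. These correlations describe the arrays and rest mainly on the tissue difference that the arrays share. GRXS9 was closest to GER3 (r = 0.988), NAC071 (0.987) and OsbZIP49, which is TGAL8 (0.986). With nitrogen in roots, GER3 changed by 1.55, NAC071 by 0.59 and OsbZIP49 by 1.02, and in shoots by 0.05, 0.15 and 0.07. These 3 genes were picked for their likeness to GRXS9 on the same arrays. Their changes follow in part from that choice and are no separate support for the GRXS9 rise. GRXS5 was closest to OsPht1;4 (0.996), ziga1 (0.995) and hox29 (0.994). GRXS2 was closest to GST1, which is GSTU1 (0.999), EXP3 (0.998) and AMT1-2 (0.997). GRXS7 was closest to FTSH1 (0.999), OsSWEET1b (0.998) and GATC (0.998). GRXS1 was closest to LEA19 (0.981), bip105 (0.975) and hsp17.9 (0.970), and GRXS6 to ta4 (0.980), OsQSOX1 (0.971) and OsPP2C78 (0.967).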

How the data were processed

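The deposited values are log2 expression per probe set, made by the authors with RMA per the submitters' processing notes. RMA is a method that corrects background, normalizes across arrays and summarises probes per probe set, which compresses differences of dim probe sets. The RMA version is not given in the sources used here. Values were used without further scaling. Of 57381 rice probe sets, 123 controls were left out. Names came from the platform annotation and a RefSeq gene table (assembly ASM3414082v1, used for names and gene order). The members and gene lists were chosen with earlier results of these data known. All 8 members are named. Genes of the glutaredoxin, TGA, thioredoxin and glutathione lists are named where called or, where none was, as the 2 of largest absolute change. The tissue marker lists are given as counts, except SCR1. Some items outside that rule were chosen after values were seen. These were the shoot responses of GRXC15, GRXC6, GRXC8, GRXC3 and GRXC7 and the further thioredoxin and glutathione values with nitrogen. The GRXS genes under other observations were also chosen in this way.

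The model (limma 3.58.1, R 4.3.3) had 4 group means over 8 arrays, which left 4 residual degrees of freedom, and used eBayes moderation. P values are two-sided and are adjusted over all 57258 probe sets. The variation they measure is only that between the 2 arrays of each group, pooled over the groups. Moderation draws this spread for each probe set toward a value estimated from all probe sets. The procedure was run on simulated data with independent noise and added effects larger than any change of the members with nitrogen. That run does not show how well changes of their size are called. Alternatives were quantile normalization, median centring, leaving out dim probe sets, array weights, no moderation, a replicate block, the arrays of 1 tissue alone, the mean of a gene's probe sets, and each array left out. The number of arrays limits the precision.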

Additional observations from a re-analysis of the deposited data

How the results depend on the processing

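With 2 arrays per group, calls with nitrogen depend on the variance estimate. The 5 tissue calls of GRXS1, GRXS2, GRXS5, GRXS7 and GRXS9 held in every alternative run, and 6 members were called in all but the replicate block (7), some fits that left out 1 array (5 to 7) and, for GRXS4, the mean of its probe sets. The root count of 1 called member was 0 without moderated variances, with the root arrays alone and in each fit without 1 array. Calls over all probe sets in roots (140) numbered 0 without moderation, 402 with the replicate block, 20 with root arrays alone and 18 to 193 without 1 array. Their balance, 104 higher and 36 lower, turned to 81 higher and 112 lower without root nitrogen replicate 2. In shoots (25, all higher) they numbered 1, 52, 3 with shoot arrays alone, and 5 to 22, and turned to 9 higher and 13 lower without shoot control replicate 2. For the mean of the tissues (76) they numbered 1 without moderation, 635 with the block and 32 to 86 without 1 array, and for the interaction (0, with 3450 at an unadjusted limma p under 0.05) 0 to 1.

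The replicate numbers of the titles were not shown to pair the arrays: the deviations of same-numbered arrays correlated at 0.028 to 0.35 between groups, and there are only 2 numbers. With the replicate block GRXS9 passed for the mean of the tissues (1 member called, 0.43, adjusted p = 0.0404) and GRXS4 for the tissue difference (0.26, adjusted p = 0.0342). The GRXS9 rise in roots stayed called (0.78, adjusted p = 0.0213).

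Sign changes all fell on uncalled values near 0. Median centring turned GRXS2 to 0.00475 in roots, 0.000988 for the mean of the tissues and 0.00753 for the interaction, and GRXS7 to 0.01 in roots; quantile normalization turned the GRXS2 interaction to 0.04. Without 1 array, root changes ran from -0.12 to 0.06 for GRXS2 and from -0.13 to 0.08 for GRXS7. Shoot changes ran from -0.28 to 0.26 for GRXS2, -0.12 to 0.09 for GRXS3, -0.04 to 0.32 for GRXS4 and -0.09 to 0.17 for GRXS5. The GRXS2 mean of the tissues ran from -0.16 to 0.11. Interactions ran from -0.32 to 0.05 for GRXS1, -0.29 to 0.25 for GRXS2, -0.23 to 0.13 for GRXS4 and -0.01 to 0.11 for GRXS6. GRXS3 has no value with dim probe sets left out, since it is one of them. The cause of these changes was not tested.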

Other observations

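The gene table names 3 more GRXS genes, GRXS10, GRXS11 and GRXS12, which are not among the 8 members. Of these, 2 were higher in shoots: GRXS12 (LOC4351647) with a root minus shoot difference of -1.65 ± 0.11 (limma adjusted p = 6.66e-06) and GRXS10 (LOC9269420) with -0.90 ± 0.11 (adjusted p = 0.000233). GRXS12 read 7.35, 7.16, 7.21 and 7.52 in the root arrays and 9.0, 8.75, 9.21 and 8.89 in the shoot arrays, with no overlap. GRXS11 (LOC4349033) was higher in roots by 0.36 ± 0.07 (adjusted p = 0.00462). Of all probe sets, 24.3% were called higher and 15.6% lower in roots. None of these 3 genes was called with nitrogen, against 0.245% of all probe sets in roots and 0.0437% in shoots. The root changes of the 3 were 0.11 (GRXS11), 0.11 (GRXS12) and 0.22 (GRXS10), and their shoot changes 0.02, 0.17 and 0.13.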
